A study of Bos taurus with 8 samples.

Results

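KLF11 and its relatives among the Krüppel-like factors were followed in primary bovine granulosa cells given non-esterified fatty acids as a mix (NEFA) or the carrier protein alone (BSA). The family was represented by KLF2, KLF3, KLF4, KLF5, KLF6, KLF9, KLF10, KLF11, KLF13 and KLF15. Probe sets were chosen by annotation and brightness: each gene was read from the brightest probe set, by its mean over the 8 arrays, whose only symbol in the array annotation was that gene. This found 9 of the 10 genes among the 18010 genes measured, each with 1 probe set. KLF3 was not analysed, because its 1 probe set also carried a second symbol. The genes themselves were chosen with their NEFA minus BSA changes known, KLF11 leading the set for its rise. Their levels and changes are therefore given as a description, without a p-value. A statement that a member passed a threshold is description too.

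Krüppel-like factors are transcription factors that bind GC-rich and CACCC sequences through zinc fingers at the end of the protein. The family splits by the partners its members recruit. KLF9, KLF10, KLF11, KLF13, KLF14 and KLF16 carry a motif that binds the SIN3 corepressor, KLF3, KLF8 and KLF12 bind the corepressor CtBP, and KLF1, KLF2, KLF4, KLF5, KLF6 and KLF7 mainly activate transcription. KLF10 and KLF11 were first described in human cells as early genes induced by transforming growth factor beta (TGF-beta). In human fat cells and pancreatic beta cells KLF11 is known as a regulator of metabolic genes.

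Granulosa cells nurse the oocyte in the follicle and secrete oestradiol and progesterone. They grew in alpha-MEM with no serum, to which follicle-stimulating hormone (FSH), insulin-like growth factor 1 (IGF-1) and androstenedione had been added. Fresh medium with bovine serum albumin (BSA, 4 arrays) or with NEFA (4 arrays) was given on days 2 and 4, and the cells were taken on day 6. The labels give neither the composition nor the dose of the NEFA mix, nor the source of the replicates (animals, pools or dishes), so the spread between arrays may be technical. Levels are log2 values normalized with the robust multi-array average (RMA). Changes are NEFA minus BSA on that scale, with the standard error (SE) of a limma model fitted to all probe sets.

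KLF11 (probe set 12708125) was higher with NEFA. Its level was 5.45, 5.67, 5.71 and 5.53 on BSA arrays 1 to 4, and 6.74, 6.69, 6.83 and 6.69 on NEFA arrays 1 to 4. Every NEFA array lay above every BSA array, and the arrays of each group lay close together. The mean went from 5.59 ± 0.12 with BSA to 6.74 ± 0.07 with NEFA (SD, n = 4), a change of 1.15 (SE 0.072) or 2.22-fold. By size of rise KLF11 was number 20 of the 18010 genes. PDK4, a kinase that restrains pyruvate oxidation, was number 4 and CPT1A, which admits fatty acids to mitochondria, number 22. The KLF11 change stayed between 1.10 and 1.19 when any 1 array was left out.

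**Figure D1:**
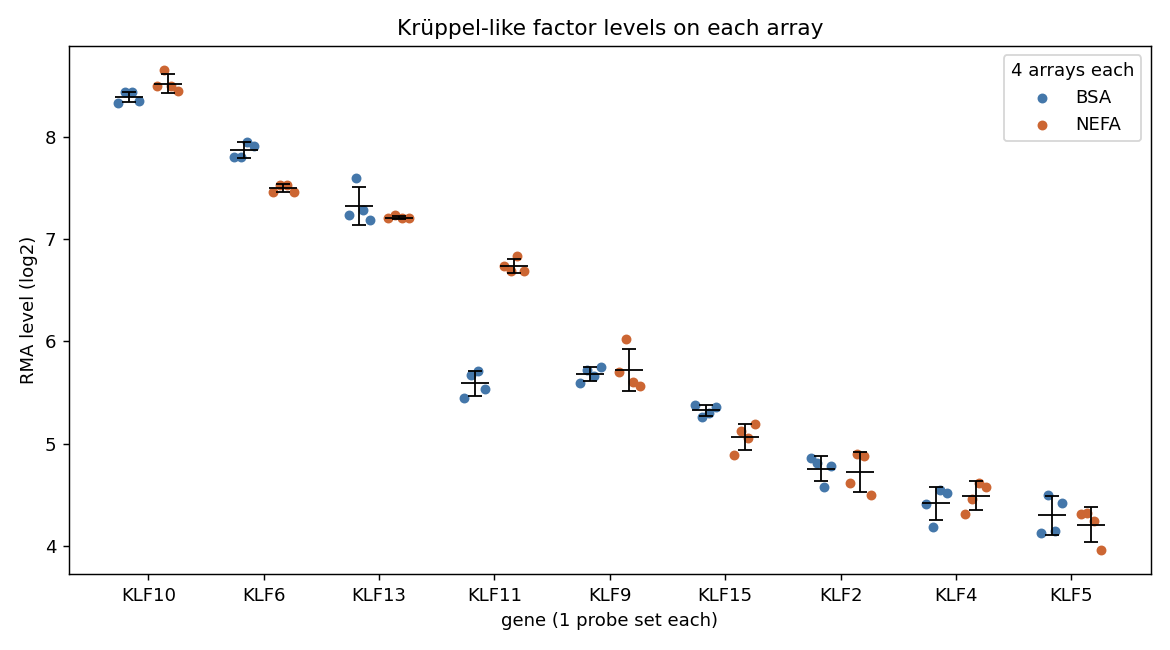
RMA level (log2, vertical axis) of 9 Krüppel-like factors on each of 4 BSA and 4 NEFA arrays, with points for arrays and black bars for mean ± SD. The KLF11 points of the groups lie apart by 1.15 on average, and the KLF6 points with NEFA lie below those with BSA.

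The nearest relatives of KLF11, the SIN3-binding factors, showed smaller differences. KLF10, an early gene of TGF-beta signalling, read 8.33, 8.43, 8.43 and 8.35 on BSA arrays 1 to 4 and 8.49, 8.65, 8.49 and 8.44 on NEFA arrays 1 to 4. The groups did not overlap, but the lowest NEFA array lay only just above the highest BSA arrays. The KLF10 change was 0.13 (SE 0.061) and did not pass the threshold, a Benjamini-Hochberg adjusted p under 0.05 over all probe sets. KLF9, which is induced by steroid and thyroid hormones, read 5.59, 5.72, 5.66 and 5.75 with BSA and 5.70, 6.02, 5.60 and 5.56 with NEFA. Its groups overlapped, and NEFA 2, also the highest array for KLF10, stood above the rest. The KLF9 change was 0.04 (SE 0.10), and -0.06 without NEFA 2. KLF13, a regulator of chemokine transcription in lymphocytes, read 7.23, 7.59, 7.28 and 7.18 with BSA and 7.20, 7.23, 7.20 and 7.20 with NEFA. BSA 2 was the high array of that gene, and the groups overlapped. The KLF13 change of -0.11 (SE 0.088) was -0.02 without BSA 2.

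Among the activating factors KLF6 was lower with NEFA. KLF6, a widely expressed factor that responds early to injury and growth signals, read 7.80, 7.80, 7.95 and 7.91 on BSA arrays 1 to 4 and 7.46, 7.53, 7.53 and 7.46 on NEFA arrays 1 to 4. All NEFA arrays were below all BSA arrays. The mean went from 7.87 ± 0.08 to 7.50 ± 0.04 (SD, n = 4), a change of -0.37 (SE 0.056), 1.29-fold lower, which passed. The size held when arrays were left out, but it no longer passed without BSA 3 (-0.34), BSA 4 (-0.36), NEFA 1 (-0.36) or NEFA 2 (-0.38).

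KLF2, KLF4 and KLF5 were dimmer and did not pass. KLF2, which keeps endothelial cells and lymphocytes quiescent, read 4.86, 4.81, 4.58 and 4.78 with BSA and 4.62, 4.90, 4.88 and 4.50 with NEFA. The groups overlapped widely, with a change of -0.03 (SE 0.11). KLF4, one of the factors used to reprogram cells to pluripotency, read 4.41, 4.19, 4.55 and 4.52 with BSA and 4.31, 4.46, 4.62 and 4.58 with NEFA, a change of 0.08 (SE 0.099). KLF5, which drives growth of epithelial and smooth muscle cells, read 4.13, 4.50, 4.15 and 4.42 with BSA and 4.31, 4.32, 4.25 and 3.96 with NEFA, a change of -0.09 (SE 0.11). NEFA 4 was the lowest array for both KLF2 and KLF5. The sign of the KLF2 change turned without BSA 1, NEFA 1 or NEFA 4 (0.002, 0.003 and 0.04) and that of KLF4 without BSA 2 (-0.0008).

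KLF15, a regulator of amino acid and glucose metabolism in muscle and liver of mice, belongs to none of the 3 classes. It read 5.38, 5.26, 5.30 and 5.36 with BSA and 4.89, 5.12, 5.06 and 5.19 with NEFA. Every NEFA array was below every BSA array, but the NEFA arrays were more spread than the BSA arrays. The mean went from 5.33 ± 0.06 to 5.07 ± 0.13 (SD, n = 4), a change of -0.26 (SE 0.072) that did not pass.

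In all, 1 of the 9 members passed as higher, 1 as lower and 7 did not pass. Over all genes 2.35% passed, 0.999% as higher and 1.35% as lower, and over all probe sets 2.03%. The groups did not overlap for 4 of 9 members, KLF6, KLF10, KLF11 and KLF15, where 12.4% of all genes showed no overlap. Since the members were proposed with this contrast in view, their counts are not a test against those shares. The median change of the other 8 members was -0.06, beside 0.005 over all genes. Within-group spread was ordinary, with pooled SDs from 0.061 for KLF6 to 0.18 for KLF5 beside a median of 0.12 over all genes.

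KLF11 moved away from its relatives on every NEFA array. The KLF11 level minus the mean level of the other 8 members was -0.52, -0.37, -0.28 and -0.50 on BSA arrays 1 to 4 and 0.87, 0.66, 0.88 and 0.83 on NEFA arrays 1 to 4. Below 0 on each BSA array and above 0 on each NEFA array, it differed by 1.22 (SE 0.076) between the groups. This SE came from the 4 array values of each group and not from the limma model. Pair by pair, the KLF11 change was larger by 1.02 than that of KLF10, the closest in change, and by 1.52 than that of KLF6, the farthest.

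The place of KLF11 in the order of levels also differed. Brightness depends on how well each probe set hybridises as well as on abundance, so the order describes signals and not transcript numbers. With BSA the order was KLF10, KLF6, KLF13, KLF9, KLF11, KLF15, KLF2, KLF4 and KLF5, from a mean of 8.39 for KLF10 down to that of KLF5. KLF9 and KLF11 overlapped there, as did KLF4 and KLF5. With NEFA KLF11 stood above KLF9, and no KLF11 array overlapped a KLF9 array. KLF15 overlapped KLF2 with NEFA, KLF2 overlapped KLF4 and KLF4 overlapped KLF5. The level of KLF11 minus that of KLF9, which cancels what is shared by an array, was -0.09 ± 0.12 with BSA and 1.02 ± 0.24 with NEFA (SD, n = 4).

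The family was also read beyond these genes, in 7 further KLF genes and 9 SP genes, the SP factors being close relatives that bind the same GC boxes. Among these 16 genes 1 fell and 15 missed the threshold, at a median change of -0.003 (8 higher, 8 lower) beside 0.005 over all genes. KLF16, a SIN3-binding factor that was not among the members, read 6.80, 6.79, 6.81 and 6.84 on BSA arrays 1 to 4 and 6.51, 6.56, 6.59 and 6.60 on NEFA arrays 1 to 4. Its groups did not overlap, and it fell by 0.25 on the log2 scale (SE 0.047; limma, Benjamini-Hochberg adjusted p = 0.039). That call ended without any 1 of the 8 arrays (limma, adjusted p from 0.073 to 0.11) and with a further quantile normalization (-0.22, adjusted p = 0.065). With an array left out the KLF16 change ran from -0.26 to -0.23.

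KLF14, a SIN3-binding factor linked to fat metabolism in humans, changed by 0.27 (SE 0.073; limma, adjusted p = 0.12), with its NEFA arrays above its BSA arrays. KLF7, an activating factor, changed by -0.14 (limma, adjusted p = 0.36; 95% interval -0.29 to 0.01), and the CtBP-binding KLF12 by 0.01 (adjusted p = 0.95, limma; 95% interval -0.11 to 0.13). SP1, the ubiquitous GC-box activator, changed by -0.04 (limma, adjusted p = 0.82; 95% interval -0.17 to 0.10) and SP3 by 0.10 (adjusted p = 0.36). By class, 1 of 6 SIN3-binding genes rose, 1 fell and 4 did not pass, with changes from -0.25 to 1.15. Of 6 activating genes 1 fell and 5 did not pass, from -0.37 to 0.08, and neither of the 2 CtBP-binding genes measured passed. Over the 25 KLF and SP genes the KLF11 change was 3.10 times the next largest in size, the -0.37 of KLF6. KLF6 and KLF11 were chosen with their changes known, so these class counts and this ratio are description and not a test. Over all genes 0.999% passed as higher and 1.35% as lower.

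**Figure D2:**
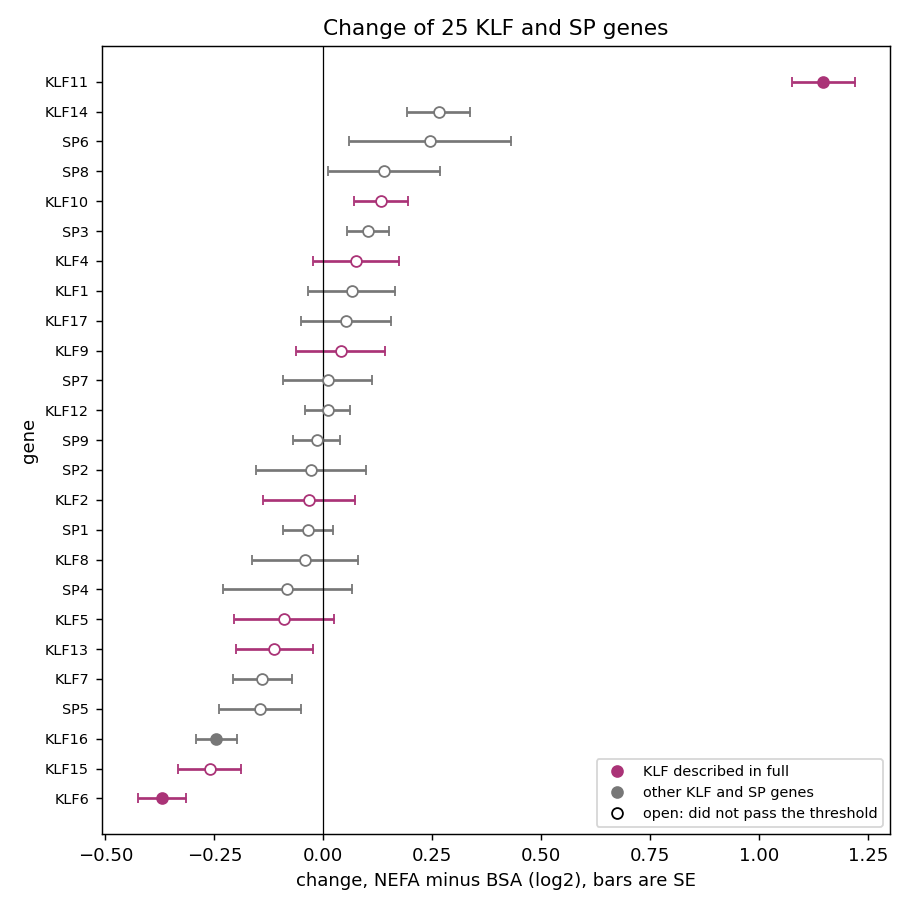
Change (NEFA minus BSA, log2, horizontal axis) of 25 KLF and SP genes, with SE bars, 4 arrays in each group. Filled points passed the limma threshold: KLF11 at 1.15, KLF16 at -0.25 and KLF6 at -0.37, while the 22 open points did not pass.

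The 5 genes most like KLF11 over the arrays were FCGRT, PLIN2, CPT1A, CPT1B and PAMR1. Likeness was the Euclidean distance between profiles of 8 array values, each minus the BSA mean of its gene, over 11901 genes with a mean level of at least 4. The nearest were FCGRT (0.26), which carries immunoglobulin G and albumin through cells, PLIN2 (0.26), a lipid droplet coat protein, and CPT1A (0.28). CPT1B (0.37), the muscle-type form of CPT1A, and PAMR1 (0.40), a secreted protein related to proteases, followed, where the median distance was 2.35. The distance mostly reflects a like size of rise and low spread, and says nothing of shared control. CPT1A read 7.80, 7.87, 7.71 and 7.69 on BSA arrays 1 to 4 and 8.90, 8.89, 8.88 and 8.86 on NEFA arrays 1 to 4, so its arrays were as cleanly parted as those of KLF11. The FCGRT change was 1.13 (SE 0.060), that of PLIN2 1.10 (SE 0.047) and that of PAMR1 0.99 (SE 0.076). KLF11 was highest on NEFA 3, while CPT1B and FCGRT were highest on NEFA 4 and PAMR1 was lowest there.

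**Figure D3:**
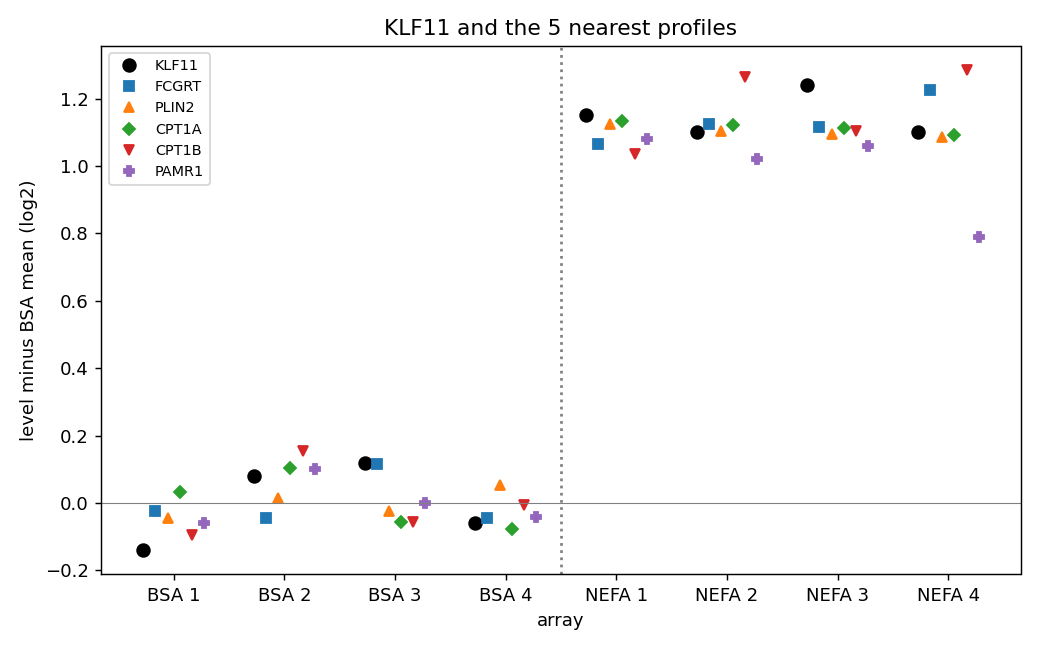
Level minus the BSA mean of the gene (log2, vertical axis) on each array for KLF11 and the 5 genes nearest to it in profile. All BSA points lie near 0, and the NEFA points of KLF11 lie about where those of CPT1A, PLIN2 and FCGRT lie.

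Genes around the Krüppel-like factors were read by role, since a KLF protein acts through partners and is itself induced by signals. Of 14 corepressors and coactivators none passed (limma; 2 were lower and 0 higher at an unadjusted p under 0.05), with a median change of -0.03. Their smallest p was that of HDAC3, a histone deacetylase, at -0.19 (SE 0.049; limma, adjusted p = 0.099). Of 7 alternative settings with all arrays and no replicate block, HDAC3 passed in 3 (limma, adjusted p from 0.0075 to 0.15). With a block for the replicate number HDAC3 did not pass (limma, adjusted p = 0.22), nor with any 1 array left out (0.12 to 0.21). Of 9 ubiquitin ligases that act on KLF proteins none passed (limma; 1 was higher at an unadjusted p under 0.05), with a median of -0.05. SMURF2, which also degrades TGF-beta receptors, changed by 0.14 (limma, adjusted p = 0.29). None of 7 genes of the ERK5 and MEF2 pathway, which induces KLF2 and KLF4 in endothelium, passed (limma; 2 lower at an unadjusted p under 0.05). Their median was -0.11, and MAP3K2, a kinase upstream of ERK5, changed by -0.22 (limma, adjusted p = 0.075). MAP3K2 passed in 3 of the same 7 alternatives (limma, adjusted p from 0.018 to 0.11), but not with the block (0.21). With any 1 array left out it did not pass either (limma, adjusted p from 0.10 to 0.17).

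TGF-beta signalling, the pathway that named KLF10 and KLF11, had 1 gene that rose among 17 measured and 16 that missed the threshold. The median change was 0.03, or -0.008 after centring each array and -0.02 at its lowest with an array left out. TGFB2, a TGF-beta ligand, read 4.67, 4.97, 4.99 and 5.12 on BSA arrays 1 to 4 and 5.48, 5.51, 5.51 and 5.39 on NEFA arrays 1 to 4. It rose by 0.54 (SE 0.093; limma, Benjamini-Hochberg adjusted p = 0.028), with no overlap between the groups. The call remained without BSA 1 or BSA 4 and ended without any other array (adjusted p up to 0.085, limma, without NEFA 3), and it ended without moderation of the variances (adjusted p = 0.061). With an array left out the TGFB2 change ran from 0.45 to 0.60.

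The glucocorticoid list held genes induced by these hormones, which also induce KLF9 and KLF15, together with the receptor NR3C1 and the cortisol-converting enzymes HSD11B1 and HSD11B2. Among 11 measured, 3 fell and 8 missed the threshold, beside 1.35% of all genes that passed as lower. At an unadjusted p under 0.05 (limma) 7 of the 11 were lower and 1 was higher. The median change was -0.28, with positive values for 2 of the 11 and for 51.5% of all genes. TSC22D3, an anti-inflammatory leucine zipper protein, went from 8.12 ± 0.08 to 7.65 ± 0.15 (SD, n = 4) and fell by 0.47 on the log2 scale (limma, adjusted p = 0.028). DUSP1, a phosphatase that switches off MAP kinases, fell by 0.34 (limma, adjusted p = 0.046), and the kinase SGK1 fell by 0.28 (limma, adjusted p = 0.034). FKBP5, a chaperone of the glucocorticoid receptor, changed by 0.02 (adjusted p = 0.93, limma), and NR3C1, the receptor itself, by -0.02 (adjusted p = 0.88). HSD11B2, which inactivates cortisol, changed by 0.41 and did not pass (limma, adjusted p = 0.063). The SGK1 call ended without any 1 array (limma, adjusted p from 0.061 to 0.10), that of DUSP1 without 7 arrays, all but BSA 4 (up to 0.12 without NEFA 3), and that of TSC22D3 without BSA 2, 3 or 4 or NEFA 1 or 2 (up to 0.090 without BSA 3). The DUSP1 call also ended with a further quantile normalization, and those of DUSP1 and TSC22D3 without moderation (limma, adjusted p = 0.060, 0.063 and 0.056). With an array left out, changes ran from -0.295 to -0.258 for SGK1, -0.39 to -0.30 for DUSP1 and -0.51 to -0.40 for TSC22D3.

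Immediate early genes, the class of fast signal-induced genes to which KLF4, KLF6 and KLF10 are often counted, mostly did not pass. Among 20 measured, 1 fell and 19 missed the threshold, at a median change of -0.07 and lower values for 13. Over all genes 1.35% passed as lower. At an unadjusted p under 0.05 (limma) 6 of the 20 were lower and 3 were higher. FOSL2, an AP-1 factor, fell by 0.27 (limma, adjusted p = 0.032), a call that ended without any 1 array (adjusted p from 0.066 to 0.094). The FOSL2 change then ran from -0.28 to -0.25. FOSL1 had the largest change of the list in size, -0.565, and did not pass (limma, adjusted p = 0.079). FOS changed by -0.46 (limma, adjusted p = 0.062) and EGR1 by -0.24 (adjusted p = 0.32), while NR4A1, a nuclear receptor, changed by 0.42 (adjusted p = 0.055).

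Of 14 genes reported as KLF targets in other cells, 1 fell and 13 missed the threshold, at a median change of -0.03. THBD, the anticoagulant receptor thrombomodulin that KLF2 and KLF4 induce in human endothelium, read 5.27, 5.14, 5.76 and 5.40 on BSA arrays 1 to 4 and 4.18, 4.58, 4.44 and 4.39 on NEFA arrays 1 to 4. The groups lay apart, and THBD fell by 0.995 (SE 0.14; limma, Benjamini-Hochberg adjusted p = 0.012), 1.99-fold lower, also without any 1 array (adjusted p up to 0.042). With a block for the replicate number THBD did not pass (limma, adjusted p = 0.061). Over the same arrays the changes of the dim KLF2 and KLF4 were -0.03 and 0.08. Their part in the THBD fall was not tested. MAOB, a monoamine oxidase bound by KLF11 in human cells, changed by -0.07.

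**Figure D4:**
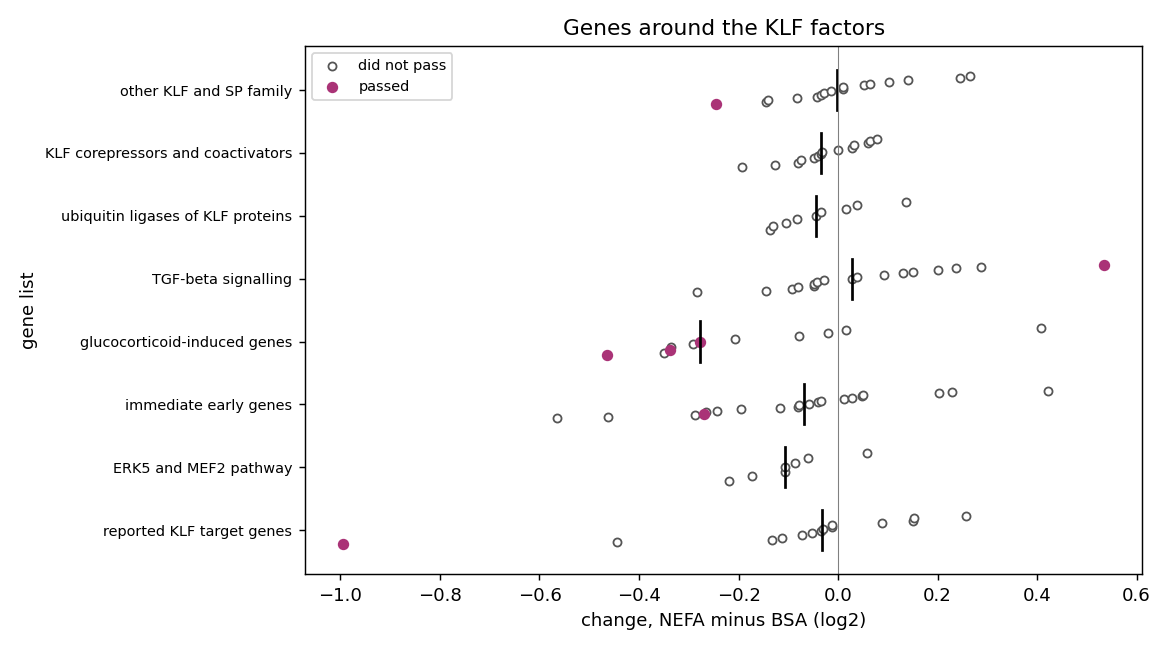
Change (NEFA minus BSA, log2, horizontal axis) of the measured genes of 8 lists around the KLF factors, 1 point per gene with a black bar at the list median. Filled points passed the limma threshold, among them THBD at -0.995 and TGFB2 at 0.54, and the glucocorticoid list has its median at -0.28.

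Most markers of granulosa cells, the labelled cell type, were bright. INHBA, an inhibin and activin subunit, read 11.59 with BSA, INHA 9.67, FOXL2 7.93, FSHR 7.49 and CYP19A1, the aromatase, 7.52. INHBB read 9.11 and AMH only 5.62, near the median level of 5.36 over all genes. None of 7 passed (limma; 1 was higher at an unadjusted p under 0.05). The endothelial PECAM1 (2.90), the leukocyte PTPRC (2.96) and the epithelial EPCAM (2.22) were dim with BSA. Other markers of these lists were brighter, with BSA levels of 7.21 for CDH1 and 6.53 for KRT5 among the epithelial markers and 5.26 for the endothelial VWF. VWF, 1 of 7 endothelial markers, fell by 0.35 (limma, adjusted p = 0.039). Of the stromal and smooth muscle markers, DCN read 9.77 and PDGFRA 8.76 with BSA, above FOXL2, FSHR and CYP19A1. TAGLN read 6.49, MYH11 4.89 and DES 4.42 with BSA. As a list these markers moved with the groups. The mean level of the 5 measured ran from 6.85 to 6.91 on BSA arrays and from 7.02 to 7.33 on NEFA arrays, where DCN rose by 0.53 and PDGFRA fell by 0.30 (limma, adjusted p = 0.020 and 0.042). The theca enzyme CYP17A1 was dim (3.11 with BSA) while INSL3 read 7.87, and the mean level of the theca markers ran from 6.05 to 6.27 and from 6.24 to 6.48 with BSA and NEFA, with none of 3 passing (limma; 2 higher at an unadjusted p under 0.05). The part of these cells in the KLF values was not tested, and in such bulk RNA fewer cells of a type and less RNA per cell cannot be told apart. Array medians lay between 4.78 and 4.82 on BSA arrays and between 4.82 and 4.86 on NEFA arrays. Of the 423 genes that passed, 42.6% were higher with NEFA, and 29.6% of those that passed after centring each array on its median.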

How the data were processed

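RNA of 8 samples, 1 array each, was hybridised to expression arrays. The deposited values are log2 levels made with RMA by the authors, per the submitters' processing notes; the software and genome build were not given in the sources used here. RMA equalises the arrays, which hides any shift common to all transcripts. The labels name a labelling kit for the 3′ end of transcripts and not the array itself, so which part of a transcript each probe set reads is not settled here. Arrays have no read depth, and their number limits the precision.

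Of 24415 probe sets, 18457 had 1 gene symbol in the platform annotation, 688 several and 5270 none. Symbols were updated by gene ID through a RefSeq table (assembly ARS-UCD2.0), which matched 17996. The brightest probe set stood for each of 18010 genes. The test was limma 3.58.1 under R 4.3.3 (lmFit and eBayes), with Benjamini-Hochberg adjustment across the 24415 probe sets. On simulated data with 24415 probe sets the fit recovered 2 of 50 changes of 0.25, 25 of 50 of 0.5, 46 of 50 of 1 and 48 of 50 of 2, with 8 false among 129 calls. The simulated noise was normal and independent between probe sets, and few probe sets were changed. These rates are therefore not the power in the real data.

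Members, the 14 lists (140 of 150 genes measured) and tests were chosen with earlier results of these data known. The rule named all members, the 5 profiles nearest to KLF11, CPT1A, PDK4, SREBF1 and CYP19A1. It also named, in each pathway list, up to 3 passing genes by size of change, or else the gene of smallest p. SREBF1, the driver of fatty acid synthesis, changed by -0.86. KLF7, KLF12, KLF14, SP1, SP3, MAOB, FKBP5, NR3C1, HSD11B2, FOS, FOSL1, EGR1, NR4A1 and the single markers were named after their values were seen. KLF3 was planned but not found by the rule, so KLF11 was set against 8 other members. No member had a further probe set to test.

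Alternatives were a block for the replicate number, quantile normalization, median centring, a filter on the dimmest 33.3% of probe sets, trend with robust eBayes, weights for arrays, no moderation, averaging all probe sets of a gene, and dropping each array in turn.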

Additional observations from a re-analysis of the deposited data

Results flagged for a closer look

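On NEFA 2, KLF13 read 7.23, while the other 3 NEFA arrays all read 7.20. The gap of 0.03 spans the whole range of the group and so exceeded the critical value of the gap test for 4 arrays, but it is small beside the SD of 0.18 on the BSA arrays. It was the 1 flag among 20 groups examined, and chance flags about 1 group in 20.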

How the results depend on the processing

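KLF11 passed in each of the 7 alternatives other than the block and without any 1 array, and its change minus the mean change of the other members lay between 1.19 and 1.27. KLF2, KLF4, KLF5, KLF9, KLF10, KLF13 and KLF15 passed in none of these. KLF6 passed in all 7, but only without 4 of the 8 arrays in turn. As the members were chosen with these changes known, such passes describe stability within these arrays and are not a test. With arrays left out in turn, changes ran from -0.39 to -0.34 for KLF6, -0.092 to 0.043 for KLF2, -0.00083 to 0.14 for KLF4 and -0.06 to 0.093 for KLF9. The number of members that passed was then 1 to 2, of genes 164 to 260, of probe sets 195 to 307 and of genes in the pathway lists 1 to 5, beside 2, 423, 495 and 7. Leaving out the dimmest 33.3% of probe sets gave 790 genes, 905 probe sets and 17 list genes. The trend and robust settings gave 1097, 1268 and 19, and averaging all probe sets of a gene gave 12 list genes. In the glucocorticoid list 5 and 7 genes passed with the first of these settings and with trend and robust settings, and 1 without moderation. Whether the replicate numbers pair the arrays was not settled. Deviations of same-numbered arrays correlated at -0.01, 0.05, 0.04 and 0.07 for replicates 1 to 4. Those of differently numbered arrays ran from -0.10 to 0.06 and were mostly below 0. The ranges overlap, with most same-numbered values in the upper part. With the replicate block 77 genes, 89 probe sets, 1 member (KLF11) and 0 list genes passed, and the KLF6 change of -0.37 and the THBD change of -0.995 did not. The cause of these shifts was not tested. Array centring moved the median change over all genes to -0.03. Changes of dim genes such as KLF2, KLF4, KLF5 and KLF14 are limited by their signal over background.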

Other observations

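The genes beside each member on the RefSeq assembly ARS-UCD2.0 were read for change. Of the 18 nearest protein-coding neighbours, 1 on each side of 9 members, 14 were measured and 0 passed (limma; 0 at an unadjusted p under 0.05). Their changes ran from -0.17 to 0.22, and the lowest adjusted p was 0.32. GRHL1, an epithelial transcription factor gene next to KLF11, had a mean level of 5.30 and changed by 0.08 (limma, adjusted p = 0.78), beside the KLF11 change of 1.15. CYS1, the neighbour on the other side of KLF11, was not measured. AZIN1, which guards ornithine decarboxylase from breakdown and lies next to KLF10, changed by -0.10 (limma, adjusted p = 0.39).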
